A study of Mus musculus with 6 samples.

Results

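The genes described here are 10 genes of the bone morphogenetic protein (BMP) pathway among the 26167 genes counted in each tumor. They were picked by exact symbol, with earlier results of these data known, and all 10 passed the filter on low counts. They are the ligands Bmp2, Bmp4, and Bmp7, the receptors Bmpr1a and Bmpr2, the targets Id1, Id2, and Id3, and the inhibitory SMADs Smad6 and Smad7. The tumors grew from Hepa1-6, a mouse hepatoma cell line that the sample labels spell Hep1-6, after injection under the skin of female C57BL/6J mice that were 6 to 8 weeks old when the study obtained mice of this strain. The 3 Sora-treated tumors came from mice given 10 mg/kg sorafenib (Sora), an inhibitor of several kinases, injected ip at 4 times, on day 9 and then on days 11, 13, and 15. The 3 control tumors came from mice without Sora, and what those mice were injected with is not given in the sources used here. Hepa1-6 is 1 cell line, so the tumors of both groups share its genotype, and each library holds the RNA of the whole tumor with its stroma, vessels, and leukocytes. The labels number the control tumors 1, 3, and 4 and the Sora-treated tumors 2, 3, and 4.

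BMPs are secreted dimers of the TGF-beta superfamily. They join a type I receptor such as Bmpr1a to a type II receptor such as Bmpr2, and the active complex phosphorylates SMAD1, SMAD5, and SMAD9, which enter the nucleus with SMAD4. The ID genes are among the best known immediate targets: ID proteins have a helix-loop-helix but no basic region, so they hold E proteins away from DNA. Smad6 and Smad7 are targets that feed back on the pathway by blocking receptors and their SMADs, and Smad7 is also a target of TGF-beta itself. In the liver, BMP signaling is best known for its control of hepcidin and thereby of iron.

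The libraries held between 31073830 and 36205814 counted reads. The members had between 262 reads (Bmp2 in Sora-treated tumor 2) and 7792 reads (Id2 in control tumor 4). The count table used here holds 5 tumors, and the counts of Sora-treated tumor 4 were recovered from its FPKM. Levels of 1 gene between tumors are given as CPM, reads as a fixed multiple of the library total, scaled with edgeR's TMM method. Levels of different genes are compared as FPKM, which divides by gene length. Fold changes, also called log2 differences where given on that scale, are Sora over control with their standard error (SE) from edgeR's quasi-likelihood test, with Benjamini-Hochberg adjustment over 16513 genes. The labels do not say whether the tumors of a group were raised and processed side by side, so the p-values measure the spread between these tumors alone.

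Bmp4 and Smad7 were up-regulated in Sora-treated tumors, and no member was called lower. The 2 calls compare with 1.94% of all genes tested that were called higher and 1.34% that were called lower, 3.29% in all. Smad6 and Id1 were also above every control tumor in each Sora-treated tumor without passing the adjusted threshold, and Bmp2 was below every control tumor. Thus 4 members lay wholly higher and 1 wholly lower, against 10.6% and 11.6% of all genes tested, 22.2% in all. At an unadjusted p under 0.05, 5 members were higher and 0 were lower in edgeR's test, against 8.53% and 8.69% of all genes. The median log2 fold change was 0.18 over the members, beside -0.00037 over all genes tested, and 0.32 over the 5 ID and inhibitory SMAD genes. No member changed by more than 2-fold.

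**Figure D1:**
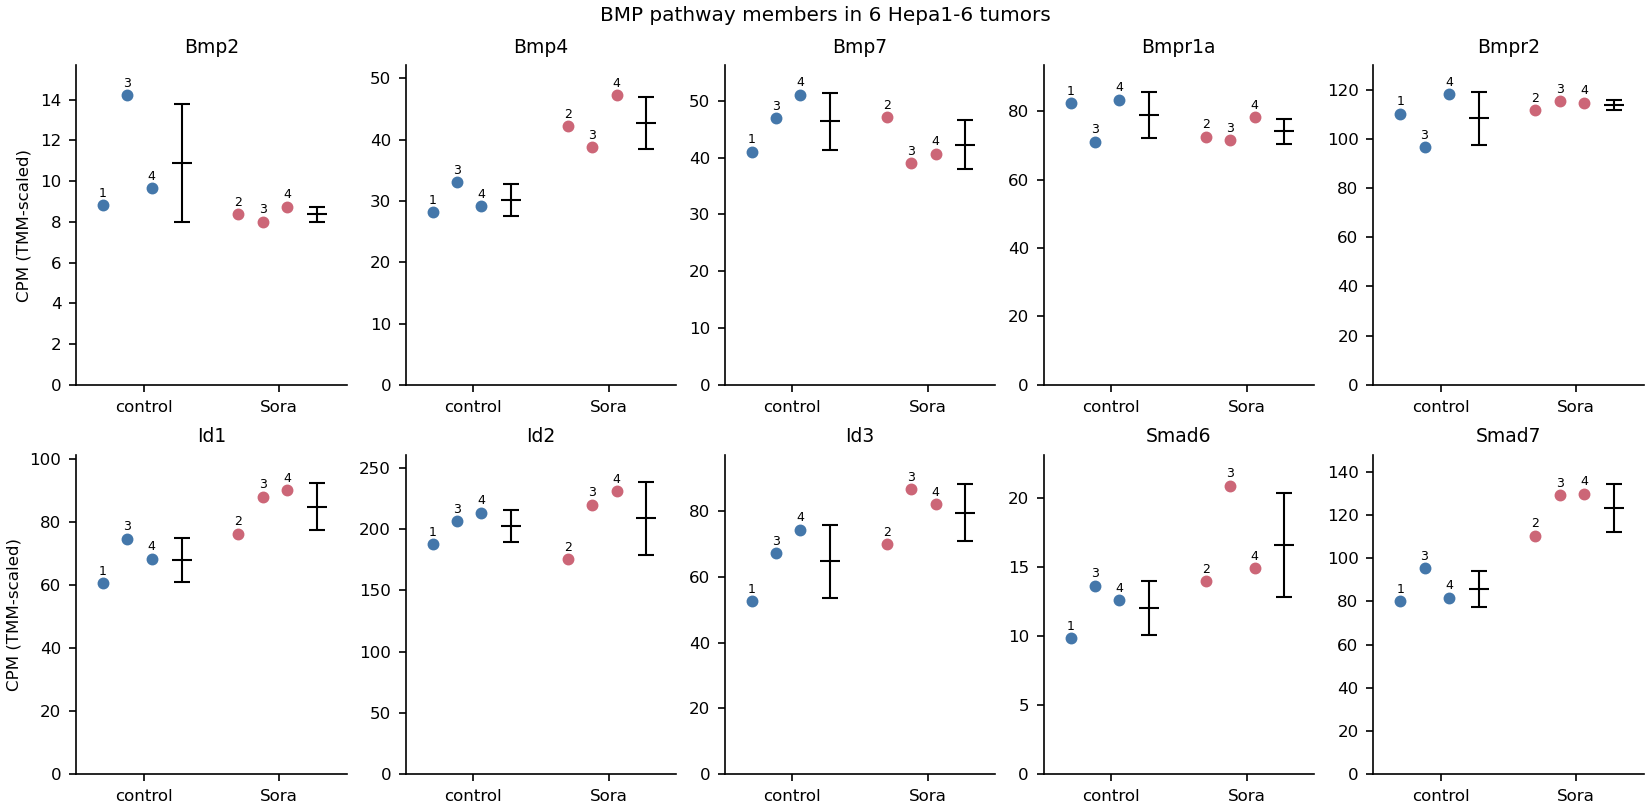
Level of each of the 10 genes in CPM (vertical axes from 0) in 3 control and 3 Sora-treated tumors; points are tumors with their label numbers, and the bar beside them is the mean ± SD. Bmp4, Id1, Smad6, and Smad7 lie higher in every Sora-treated tumor than in any control tumor, Bmp2 lies lower, and the other 5 genes overlap.

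Stretches at the transcription starts of members are shown because SMAD complexes are known to bind short GC-rich and GTCT-type letters. Whether such letters bear on the levels in these tumors was not tested. RefSeq's promoter table for GRCm38.p6 has an entry for 6 of the 10 members, and Bmp2, Bmp7, Id1, and Smad7 have none. Capitals mark GGCGCC or CAGAC on either strand in the 250 bases before the start of Bmp4 (chr14:46390670-46390919, minus strand), Id3 (chr4:136143572-136143821, plus strand), and Id2 (chr12:25096093-25096342, minus strand), each written 5′ to 3′.
Bmp4: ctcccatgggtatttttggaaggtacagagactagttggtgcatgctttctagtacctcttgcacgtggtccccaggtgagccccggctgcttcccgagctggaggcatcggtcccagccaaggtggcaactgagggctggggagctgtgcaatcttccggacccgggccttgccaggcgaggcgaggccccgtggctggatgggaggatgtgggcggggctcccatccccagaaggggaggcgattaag
Id3: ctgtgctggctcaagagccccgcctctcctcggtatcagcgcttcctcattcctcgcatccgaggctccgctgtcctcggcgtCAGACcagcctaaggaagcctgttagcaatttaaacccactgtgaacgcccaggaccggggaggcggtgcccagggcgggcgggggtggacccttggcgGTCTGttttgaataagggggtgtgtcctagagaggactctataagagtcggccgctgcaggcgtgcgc
Id2: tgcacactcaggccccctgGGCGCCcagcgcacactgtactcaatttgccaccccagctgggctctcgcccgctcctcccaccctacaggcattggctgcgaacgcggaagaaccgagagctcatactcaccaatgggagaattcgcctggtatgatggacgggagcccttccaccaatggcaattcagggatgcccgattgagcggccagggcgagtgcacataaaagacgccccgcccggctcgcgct
Id3 held CAGAC or its reverse complement GTCTG at 2 places, 167 and 68 bases before the start, and 42.2% of the 32851 promoter windows hold these letters. Id2 held GGCGCC 231 bases before the start, and Bmpr1a and Bmpr2 each held it once, beside 9.59% of all windows, and Bmp4 held neither. Smad6 held neither as well, but it has the palindrome GTCTAGAC (in capitals) across the start of its promoter entry, beginning 4 bases before it. The palindrome was looked for after the sequence had been seen, so its share of 0.213% of the whole windows does not test its presence here. The 30 bases shown, 15 before that start and 15 from it on, lie at chr9:64022045-64022074 on the minus strand. The start of the entry lies 26 bases inside the gene's outermost start for Smad6 and 790 bases inside it for Bmpr1a, so these windows overlap the gene, and the starts of the other 4 entries are the outermost ones.
Smad6: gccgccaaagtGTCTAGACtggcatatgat

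Among the ligands, Bmp4 rose. It was 28.2, 33.1, and 29.1 CPM in the control group (tumors 1, 3, 4) against 42.2, 38.8, and 47.3 CPM under Sora (tumors 2, 3, 4). The lowest Sora-treated tumor lay 5.71 CPM above the highest control tumor. Bmp4 (chromosome 14 of GRCm38.p6, 46383525 to 46390669), a ligand with broad roles in mesoderm, liver bud, and stroma, thus went from 30.2 ± 2.61 to 42.8 ± 4.26 CPM (SD, n = 3), 1.42-fold, with a log2 fold change of 0.50 (SE 0.10; edgeR, adjusted p = 0.023). The fold stayed between 0.43 and 0.58 on the log2 scale under every alternative run. The call was lost without control tumor 1 (adjusted p = 0.082), control tumor 4 (0.080), Sora-treated tumor 2 (0.077), or Sora-treated tumor 4 (0.12), the last resting on deposited counts alone, in edgeR's test.

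Neither Bmp2 nor Bmp7 passed the test. Bmp2 (chromosome 2, 133552159 to 133562896), a close relative of Bmp4 that uses the same receptors, was 8.82, 14.2, and 9.65 CPM in the control group (tumors 1, 3, 4) against 8.38, 8.01, and 8.75 CPM under Sora (tumors 2, 3, 4). The groups were separated by 0.0616 CPM only, and control tumor 3 stood above the other five. The log2 fold change was -0.38 (SE 0.18; edgeR, adjusted p = 0.32), and -0.14 without control tumor 3 (edgeR, adjusted p = 0.70). Bmp7 (chromosome 2, 172868012 to 172940321), which is more widespread in epithelia, overlapped between the groups. It was at 46.4 ± 5.03 CPM in control and 42.3 ± 4.27 CPM in Sora-treated tumors (SD, n = 3). The log2 difference was -0.13 (SE 0.10; edgeR, adjusted p = 0.56), and it ranged from -0.22 to -0.060 with 1 tumor left out.

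As a share of the summed FPKM of these 3 ligands, Bmp4 was higher in every Sora-treated tumor than in any control tumor. The share of Bmp4 was 50.1%, 48.9%, and 46.0% in the control group (tumors 1, 3, 4) against 57.5%, 59.4%, and 62.9% under Sora (tumors 2, 3, 4). That of Bmp7 was 41.7 ± 3.23% and 33.3 ± 2.80%, and that of Bmp2 9.99 ± 1.86% and 6.79 ± 0.257% (SD, n = 3). Each share was separated between the groups, so that an exact permutation test gave p = 0.1, the smallest that 3 tumors against 3 allow in a two-sided test. The mean difference for Bmp4 was 11.6 percentage points. With all listed BMP ligands in the sum, Bmp8b included, it was 5.79 points, from 38.1 ± 2.15% to 43.9 ± 2.23% (SD, n = 3), still with separated groups. The shares of a sum add up to the whole and are not independent, and the proteins were not measured.

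Neither receptor passed the test, and both overlapped between the groups. Bmpr1a (chromosome 14, 34411061 to 34503336), a type I receptor for Bmp2 and Bmp4, was 78.9 ± 6.80 CPM in control and 74.1 ± 3.68 CPM in Sora-treated tumors (SD, n = 3), a log2 difference of -0.09 (SE 0.08; edgeR, adjusted p = 0.64). Bmpr2 (chromosome 1, 59764279 to 59878081), the type II receptor with a long cytoplasmic tail, was 108 ± 10.9 and 114 ± 1.96 CPM (SD, n = 3), a log2 difference of 0.07 (SE 0.08; edgeR, adjusted p = 0.72). Control tumor 3 was the lowest of its group for both, and without it Bmpr1a stood at -0.16 and Bmpr2 at -0.0030 on the log2 scale. Without control tumor 4, Bmpr1a stood at -0.050.

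None of the ID targets passed the adjusted threshold, and Id1 alone had separated groups. Id1 (chromosome 2, 152736251 to 152737410), the ID gene most often used as a readout of BMP activity, was 60.5, 74.6, and 68.3 CPM in the control group (tumors 1, 3, 4) against 76.2, 88.0, and 90.1 CPM under Sora (tumors 2, 3, 4). The groups were separated by 1.66 CPM, between control tumor 3 and Sora-treated tumor 2. The log2 fold change was 0.32 (SE 0.10; edgeR, adjusted p = 0.099), 1.25-fold. DESeq2, the tool the study names for its differential expression, gave the same fold and an adjusted p of 0.032. It so called 3 members, all higher, where it called 7.71% of all genes in either direction. The study's own rule also asked for a change of more than 2-fold, which no member reached. For Id1, edgeR without a filter gave an adjusted p of 0.043.

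Id3 (chromosome 4, 136143822 to 136145392), which is prominent in lymphocytes and vessels, was 52.7, 67.2, and 74.3 CPM in the control group (tumors 1, 3, 4) against 69.9, 86.7, and 82.1 CPM under Sora (tumors 2, 3, 4). Control tumor 4 exceeded Sora-treated tumor 2, and the log2 fold change was 0.30 (SE 0.12; edgeR, adjusted p = 0.24). It was 0.17 without control tumor 1 and 0.41 without control tumor 4 (edgeR, adjusted p = 0.54 and 0.15). Id2 (chromosome 12, 25093799 to 25096092), which NK cells and other innate lymphoid cells need, was 203 ± 13.4 and 209 ± 29.6 CPM (SD, n = 3), a log2 difference of 0.04 (SE 0.10; edgeR, adjusted p = 0.87). The lowest and the highest value of Id2 were both in Sora-treated tumors, 175 CPM in tumor 2 and 231 CPM in tumor 4. Within the summed FPKM of the 3 ID genes, Id2 held 55.9 ± 1.75% in control and 51.1 ± 1.42% in Sora-treated tumors, and Id1 held 20.5 ± 1.16% and 22.8 ± 0.782% (SD, n = 3; groups separated, exact permutation p = 0.1 for both). The share of Id3 overlapped between the groups (23.7 ± 1.96% and 26.1 ± 0.988%; SD, n = 3; exact permutation p = 0.2).

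Both inhibitory SMADs were higher in every Sora-treated tumor, and Smad7 passed the test. Smad7, which recruits ubiquitin ligases to TGF-beta and BMP type I receptors, was 80.1, 95.4, and 81.7 CPM in the control group (tumors 1, 3, 4) against 110, 129, and 130 CPM under Sora (tumors 2, 3, 4). The gap between the groups was 15.1 CPM, wider than the SD of either group. The change from 85.7 ± 8.40 to 123 ± 11 CPM (SD, n = 3) was 1.44-fold, with a log2 fold change of 0.52 (SE 0.09; edgeR, adjusted p = 0.019). The call was lost without control tumor 1 (adjusted p = 0.062), control tumor 4 (0.068), or Sora-treated tumor 4 (0.11) in edgeR's test, with folds from 0.48 to 0.61 on the log2 scale over the alternatives.

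Smad6 (chromosome 9, 63953076 to 64022085), which acts mainly on BMP rather than TGF-beta receptors, was 9.84, 13.7, and 12.6 CPM in the control group (tumors 1, 3, 4) against 14.0, 20.9, and 14.9 CPM under Sora (tumors 2, 3, 4). The groups were separated by 0.339 CPM, and Sora-treated tumor 3 stood above the rest. The log2 fold change was 0.46 (SE 0.17; edgeR, adjusted p = 0.18), and 0.26 without Sora-treated tumor 3 (edgeR, adjusted p = 0.38).

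The order of the levels per length put the ID genes on top and Bmp2 at the bottom. Mean FPKM over the 6 tumors was 162 for Id2, 75.6 for Id3, 65.6 for Id1, 23.5 for Smad7, 17.7 for Bmp4, 12.6 for Bmpr1a, 12.1 for Bmp7, 9.41 for Bmpr2, 4.76 for Smad6, and 2.70 for Bmp2. The ranges over the 6 tumors overlapped for the neighbors Id3 and Id1, Smad7 and Bmp4, Bmpr1a and Bmp7, and Smad6 and Bmp2. They did not overlap between Id2 and Id3 (lowest Id2 139 FPKM, highest Id3 91.9 FPKM), Id1 and Smad7, Bmp4 and Bmpr1a, Bmp7 and Bmpr2, or Bmpr2 and Smad6. Among these 3 ligands Bmp4 and Bmp7 were thus well above Bmp2, and Bmp8b, a ligand outside the 10, had a mean of 9.95 FPKM.

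**Figure D2:**
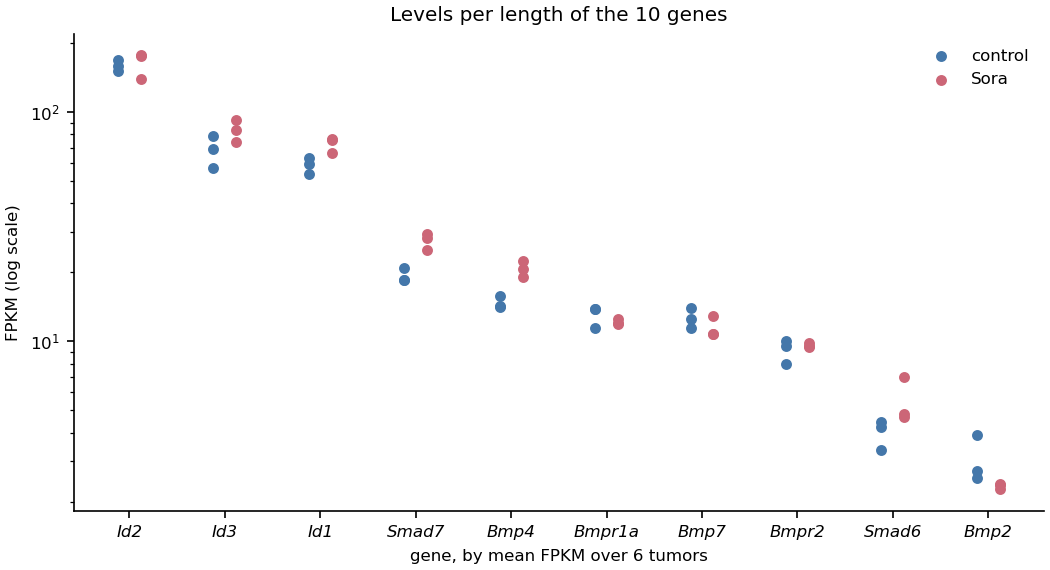
FPKM on a log axis of each of the 10 genes in each of the 3 control and 3 Sora-treated tumors, one point per tumor, with genes ordered by their mean over all 6. Id2 stands highest at a mean of 162 FPKM and Bmp2 lowest at 2.70 FPKM, and the Sora-treated points of Smad7 and Bmp4 sit above the control points.

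The other genes of the pathway were described with lists, in which 54 of 68 genes were tested. Of these, 2 were called higher and 0 lower in edgeR's test, where 1.94% and 1.34% of all genes tested were. DESeq2 called 4 higher and 1 lower, where it called 7.71% of all genes in either direction. At an unadjusted p under 0.05, 9 were higher and 3 lower by edgeR, where 8.53% and 8.69% of all genes were, and the median log2 fold change was -0.012. Bmp8b, a ligand best known for thermogenesis, rose from 29.0 ± 3.45 to 46.8 ± 4.61 CPM (SD, n = 3), a log2 difference of 0.69 (SE 0.11; edgeR, adjusted p = 0.013). Its near copy Bmp8a had too few reads to test, and reads that both genes could claim make the value uncertain. Acvr1, a type I receptor for Bmp7 and related ligands, rose from 30.5 ± 2.63 to 40.3 ± 2.91 CPM (SD, n = 3), a log2 difference of 0.40 (SE 0.09; edgeR, adjusted p = 0.042). Without Sora-treated tumor 4 neither stayed under 0.05 (edgeR, adjusted p = 0.083 for Bmp8b and 0.19 for Acvr1). Acvr1 was also lost without control tumor 1 (0.13), control tumor 4 (0.12), or Sora-treated tumor 2 (0.11).

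Of the 11 further ligands, 4 were tested, and 1 (Bmp8b) was called. Bmp6, the ligand that liver endothelium makes to control hepcidin, was at or under 0.522 CPM in every tumor and lay lower in each Sora-treated tumor (log2 difference -0.91, SE 0.44; edgeR, adjusted p = 0.32). Of 9 further receptors and co-receptors, all tested, 1 (Acvr1) was called. Bmpr1b, a type I receptor of cartilage and ovary, was 1.03 ± 0.0381 and 0.551 ± 0.256 CPM (SD, n = 3), a log2 difference of -0.90 (edgeR, adjusted p = 0.32), with separated groups. Eng, the endothelial co-receptor endoglin, had a log2 fold change of 0.04 (edgeR, adjusted p = 0.91). Gdf7 was not analysed here.

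Of 17 antagonists and extracellular modulators, 14 were tested and 0 were called by edgeR (median log2 fold change -0.097), with 2 higher and 1 lower at an unadjusted p under 0.05. DESeq2 called 2 of them, Crim1 higher (adjusted p = 0.0059) and Fstl1 lower (adjusted p = 0.044). The most abundant were Fstl1, a stromal glycoprotein, at 242 ± 15.8 and 196 ± 26 CPM (SD, n = 3), a log2 difference of -0.30 (edgeR, adjusted p = 0.15), and Fst, the activin and BMP trap follistatin, at 150 ± 30.6 and 154 ± 23.1 CPM (SD, n = 3), a log2 difference of 0.04 (edgeR, adjusted p = 0.91). The classical antagonist Nog had 1 to 10 reads per tumor and was not tested. None of the 5 transducers and ubiquitin ligases tested of 6 was called by edgeR or DESeq2 (1 higher and 1 lower at an unadjusted p under 0.05 in edgeR). Smad4, the common partner, and Smad1, which the receptors phosphorylate, had log2 fold changes of 0.06 and -0.02 (adjusted p = 0.72 and 0.94, edgeR). Smad5, another receptor-phosphorylated SMAD, was lower in every Sora-treated tumor, at 104 ± 1.96 and 90.3 ± 0.768 CPM (SD, n = 3), a log2 difference of -0.21 (edgeR, adjusted p = 0.12). Smurf1, a ubiquitin ligase for BMP SMADs, was higher in each (0.19; edgeR, adjusted p = 0.17).

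Among BMP targets outside the member list no gene passed the test. Of 10 such genes 7 were tested and 0 were called by edgeR or DESeq2, nor was any under an unadjusted p of 0.05 in edgeR (median log2 fold change -0.036). Runx2, a bone transcription factor, was at 39.7 ± 1.48 and 39.7 ± 3.81 CPM (SD, n = 3), a log2 difference of 0.0024 (edgeR, adjusted p = 0.99). Atoh8, a helix-loop-helix gene linked to hepcidin control, was 10.1, 14.9, and 13.5 CPM in the control group (tumors 1, 3, 4) against 6.17, 15.8, and 6.34 CPM under Sora (tumors 2, 3, 4). Its Sora-treated tumors therefore spanned more than the control group, and the log2 fold change was -0.44 (edgeR, adjusted p = 0.53); without Sora-treated tumor 3 it was -1.04 (edgeR, adjusted p = 0.011). Hepcidin itself (Hamp) had 2 reads in control tumor 1 and 0 in the other tumors.

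None of the 3 E proteins that ID proteins bind was called by edgeR or DESeq2, or had an unadjusted p under 0.05 in edgeR (median log2 fold change -0.060). Tcf3 had a log2 fold change of 0.13 (edgeR, adjusted p = 0.39) and Tcf12 of -0.06 (edgeR, adjusted p = 0.74). In the TGF-beta branch, 0 of 12 genes were called in either direction in edgeR's test (median log2 fold change 0.070), with 4 higher and 1 lower at an unadjusted p under 0.05, and DESeq2 called 1 (Smad3) higher. The ligand Tgfb1 was higher in every Sora-treated tumor, at 187 ± 10.3 and 222 ± 16.8 CPM (SD, n = 3), a log2 difference of 0.24 (edgeR, adjusted p = 0.14, and 0.046 without Sora-treated tumor 3), while the scarce Tgfb2 was lower in each, at 4.02 ± 0.133 and 2.42 ± 0.510 CPM (SD, n = 3), a log2 difference of -0.73 (edgeR, adjusted p = 0.12). Tgfbr2, the type II receptor for TGF-beta, was also lower in each, at 246 ± 7.02 and 221 ± 9.86 CPM (SD, n = 3), a log2 difference of -0.15 (edgeR, adjusted p = 0.30).

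**Figure D3:**
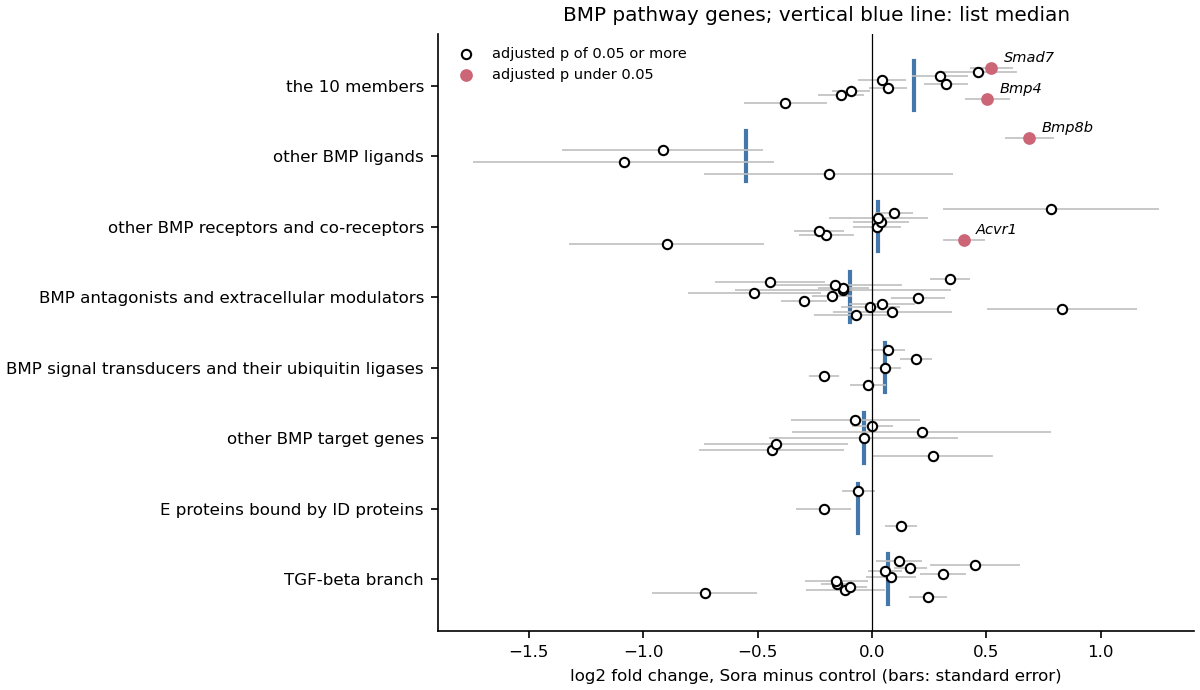
Log2 fold change, Sora minus control, of each tested gene of the member list and of 7 further lists of the pathway; horizontal bars are standard errors, points are filled where edgeR's adjusted p was under 0.05, and blue vertical lines are list medians. The 4 filled points, Smad7, Bmp4, Bmp8b, and Acvr1, all lie to the right of 0.

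Markers of the cells in the tumor moved as well. In a bulk tumor, fewer cells of a type and less RNA per cell cannot be told apart. Hepatoma markers were present, with Alb at 2652 to 3510 CPM in control and 1994 to 2445 CPM in Sora-treated tumors, though Ahsg was too low to test. Of the 7 hepatoma markers tested, Hnf4a (log2 fold change 0.80, adjusted p = 0.013) and Apoa1 (1.03, adjusted p = 0.047) were called higher and Alb (-0.55, adjusted p = 0.041) lower in edgeR's test, and the summed CPM, in which Alb weighs most, was 4851 to 6315 in control and 4904 to 5463 in Sora-treated tumors. Fold changes were above 0 for 5 of the 7 (median 0.33 on the log2 scale), and these 5 were higher and 1 lower at an unadjusted p under 0.05 in edgeR. DESeq2 called Hnf4a and Apob higher and Alb lower but not Apoa1 (adjusted p = 0.063). Most of the list thus leaned the same way as Bmp4 and Smad7, and its part in the result was not tested. With 1 tumor left out in turn, Hnf4a kept its call in 4 of 6 fits (lost without control tumor 4 or Sora-treated tumor 4), Alb in 2 (without control tumor 1 or Sora-treated tumor 3), and Apoa1 in 1 (without Sora-treated tumor 3). The 9 fibroblast markers summed to 7807 to 8091 CPM in control and 5560 to 6988 CPM in Sora-treated tumors, with 8 of 9 fold changes below 0, 0 called by edgeR (3 lower at an unadjusted p under 0.05), and 3 collagens called lower by DESeq2. The 7 T cell markers summed to 171 to 193 and 138 to 150 CPM, with 7 of 7 fold changes below 0, and Cd6 called lower (-0.58, adjusted p = 0.039, edgeR), a call kept in 2 of the 6 fits (without control tumor 3 or Sora-treated tumor 3). At an unadjusted p under 0.05, 5 T cell markers were lower in edgeR, and DESeq2 called 2 lower, Cd6 and Lck. These 2 sums were separated between the groups, in the direction opposite to Bmp4 and Smad7, and their part in the result was not tested.

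The sums of the other lists overlapped between the groups. The 10 endothelial markers, of cells in which Id1, Id3, Smad6, and Smad7 are well known BMP targets, summed to 299 to 341 CPM in control and 239 to 323 CPM in Sora-treated tumors, with 8 of 10 fold changes below 0 and 0 called by edgeR or DESeq2 (2 lower at an unadjusted p under 0.05 in edgeR). The 8 macrophage markers summed to 2816 to 3183 and 2307 to 2844 CPM (8 of 8 fold changes below 0, 0 called by edgeR, 5 lower at an unadjusted p under 0.05, and 4 called lower by DESeq2). The 5 NK cell markers summed to 8.31 to 12.5 and 10.2 to 14.6 CPM, with Klra4 called higher (log2 fold change 1.81, adjusted p = 0.045, edgeR), a call kept in 1 of the 6 fits (without Sora-treated tumor 3). Of the other NK cell markers, Eomes was lower in every Sora-treated tumor (log2 fold change -0.63; edgeR, adjusted p = 0.16), and 3 of the 5 fold changes were above 0. The 6 skeletal muscle markers summed to 153 to 212 and 178 to 244 CPM, with 6 of 6 fold changes above 0 (median 0.19 on the log2 scale). The 4 tested adipocyte markers summed to 45.7 to 67.1 and 51.7 to 78.7 CPM, a sum made up mostly of Fabp4, with 4 of 4 fold changes above 0 (median 0.65) and Plin1 higher in every Sora-treated tumor (log2 fold change 0.67; edgeR, adjusted p = 0.22). In both lists 0 genes were called by edgeR or DESeq2, and 1 muscle and 2 adipocyte markers were higher at an unadjusted p under 0.05 in edgeR. These lists leaned the same way as Bmp4 and Smad7, and their part in the result was not tested. No list had a marker at 0 in all tumors.

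Keratinocyte and skin markers, present around a tumor under the skin, differed within groups. All 7 fold changes were above 0 (median 0.42 on the log2 scale), with 0 called by edgeR or DESeq2 and 0 at an unadjusted p under 0.05 in edgeR. They summed to 1079, 318, and 404 CPM in the control group (tumors 1, 3, 4) against 954, 706, and 675 CPM under Sora (tumors 2, 3, 4). Control tumor 1 and Sora-treated tumor 2, the highest of their groups, were the lowest of them for all 5 ID and inhibitory SMAD genes. They were also lowest for the hepatoma (4851 and 4904 CPM), skeletal muscle (153 and 178 CPM), and adipocyte sums (45.7 and 51.7 CPM). The endothelial, fibroblast, macrophage, T cell, and NK cell sums did not have both of these tumors lowest. For Bmp2, Bmp4, and Bmp7, control tumor 1 was also the lowest control tumor, but the lowest Sora-treated tumor was tumor 3. The part of skin or other cells in the levels of control tumor 1 and Sora-treated tumor 2 was not tested. With both tumors left out, the log2 fold changes were 0.47 for Bmp4, 0.55 for Smad7, 0.32 for Id1, 0.26 for Id3, and 0.45 for Smad6, and no member passed the threshold with 2 tumors per group (adjusted p = 0.18 for Bmp4 and 0.061 for Smad7, edgeR). Across all genes, 55 were called higher and 24 lower in that setting.

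**Figure D4:**
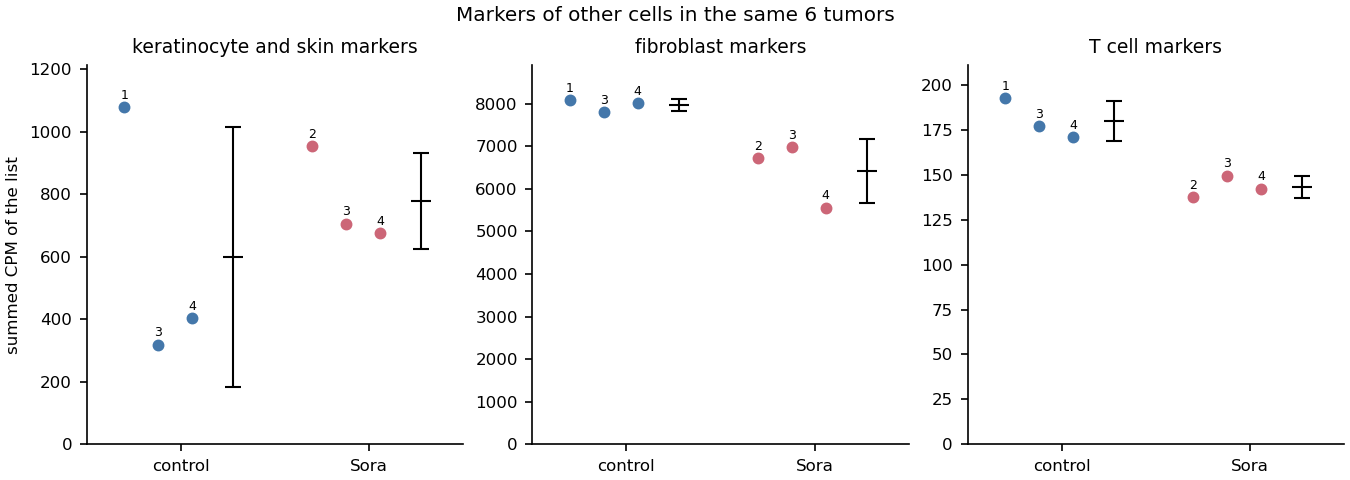
Summed CPM (axes from 0) of the keratinocyte and skin, fibroblast, and T cell marker lists in each tumor, with label numbers beside the points and the mean ± SD to their right. Skin markers are highest in control tumor 1 (1079 CPM) and Sora-treated tumor 2 (954 CPM), and the fibroblast and T cell sums lie lower in every Sora-treated tumor than in any control tumor.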

How the data were processed

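RNA of 3 control and 3 Sora-treated Hepa1-6 tumors, 1 library per tumor, was analyzed. The authors deposited counts, whole reads per gene without normalization, for 5 tumors in the table used here, and FPKM, reads scaled to gene length and to the library total, for all 6. Their methods name GRCm38, Bowtie2, and an expectation maximization step for FPKM, whereas the submitters' processing notes list GRCm39, fastp, HISAT2, HTSeq, R 3.2.0, and DESeq2; the gene annotation and use of strand are not given in the sources used here, so overlapping genes and near copies are uncertain. Coordinates and promoter sequences are RefSeq's for GRCm38.p6, matched by symbol.

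The counts of Sora-treated tumor 4 were recovered from its FPKM and total with gene lengths worked out from tumors that have both units. Treating each of the other 5 tumors as unknown returned all of its 20969 to 21229 reachable counts exactly; in tumor 4 every value (100%) was whole to a tolerance of 0.001, and 342 genes without a length (512 reads) were left at 0.

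Genes reaching 10 counts in 3 or more tumors (16513) were tested with edgeR 4.0.16 (glmQLFit, glmQLFTest, TMM) in R 4.3.3. The standard error is the fold change divided by the square root of F. The biological coefficient of variation was 0.132. Alternatives were DESeq2 1.42.0, other scalings and filters, a replicate block, each tumor left out, and limma 3.58.1 on log2(FPKM + 1) or log2(FPKM + 0.1). The scripts were tested on simulated data. The members, lists, and tests were chosen with earlier results of these data known. Genes named are the members; list genes with an adjusted p under 0.05; the 2 tested genes of highest FPKM in each pathway list; and pathway genes with separated groups and a log2 fold change beyond 0.5 in either direction. A few others are named for their role or after their values were seen. Hjv was matched through its older symbol. A TGF-beta branch gene of the lists is not reported here and was left out of their counts.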

Additional observations from a re-analysis of the deposited data

How the results depend on the processing

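Bmp4, Bmp2, Bmp7, Bmpr1a, Id1, Id3, Smad6, and Smad7 kept their direction in all 16 alternatives; Bmp4 kept its call in 8, Smad7 in 9, and Id1 gained one in 2. Members called higher (2) fell to 0 with the replicate block, log2(FPKM + 0.1), or log2(FPKM + 1) of all genes, and ranged from 0 to 2 with 1 tumor left out. Pathway genes called higher (2) were 4 in DESeq2, 1 with log2(FPKM + 1), 0 with the block, log2(FPKM + 0.1), or log2(FPKM + 1) of all genes, and 0 to 4 with 1 tumor left out; those called lower (0) were 1 in DESeq2 and 0 to 1 with 1 tumor left out. Over all genes, 321 higher and 222 lower became 619 and 575 in DESeq2, 570 and 577 without a filter, 80 and 45 with the block, 136 and 62 with log2(FPKM + 1), 21 and 17 with log2(FPKM + 0.1), 0 and 0 with log2(FPKM + 1) of all genes (1604 and 1649 at an unadjusted p under 0.05, limma), and 4 to 574 and 1 to 571 with 1 tumor left out, the lowest without Sora-treated tumor 4 and the highest without Sora-treated tumor 3. Leaving out control tumor 1 and Sora-treated tumor 2 together, chosen after seeing the data, gave 0 members and 0 pathway genes higher, and 55 and 24 genes. The cause of these differences was not tested. The sum over all listed ligands was also chosen after seeing the data.

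Signs near 0 turned with 1 tumor left out, to a range of -0.0030 to 0.14 for Bmpr2, -0.034 to 0.16 for Id2, -0.071 to 0.18 for Eng, -0.051 to 0.23 for Fst, -0.063 to 0.030 for Smad1, and -0.046 to 0.081 for Runx2. Runx2 was also -0.010 with total counts, -0.0034 without a filter, -0.011 with log2(FPKM + 1) of filtered or of all genes, and -0.013 with log2(FPKM + 0.1).

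Only numbers 3 and 4 occur in both groups. Deviations from the group means correlated at -0.033 and -0.074 for these pairs, so the numbers were not taken to pair the tumors. Of all pairs across the groups, control tumor 1 and Sora-treated tumor 2 correlated most, at 0.26. The block fit, which rests on the 4 tumors numbered 3 and 4, gave adjusted p = 0.23 for Bmp4 and 0.058 for Smad7 (edgeR). Counting error bears most on genes with few reads, such as Hamp, Nog, Bmp8a, Bmp6, and Bmpr1b.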

Other observations

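A few pathway genes passed the threshold only in some alternatives, and they are named here after their values were seen. DESeq2 called Crim1, a transmembrane modulator that binds BMPs, higher (log2 fold change 0.34; adjusted p = 0.0059 in DESeq2 and 0.057 in edgeR), as edgeR did with no filter (0.020) or without Sora-treated tumor 2 (0.049). It also called Smad3, a TGF-beta transducer, higher (0.31; adjusted p = 0.037 in DESeq2 and 0.13 in edgeR) and Fstl1 lower (-0.30; adjusted p = 0.044 in DESeq2 and 0.15 in edgeR). Without Sora-treated tumor 3, edgeR called Grem1, a BMP antagonist of fibroblasts, higher (log2 fold change 1.11, adjusted p = 0.048), together with Tgfb1 (0.30, adjusted p = 0.046), and Atoh8 lower (-1.04, adjusted p = 0.011). That fit called more genes of every kind, 574 higher and 571 lower of 16295, against 321 and 222 of 16513 with all tumors. In all tumors Grem1 was 78, 88, and 61 reads in control tumors 1, 3, and 4 and 174, 78, and 140 reads in Sora-treated tumors 2, 3, and 4, so the groups overlapped through Sora-treated tumor 3 (log2 fold change 0.83, adjusted p = 0.21, edgeR).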
